A study of Pelodiscus sinensis with 8 samples.

Results

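The genes described here are the skeletal muscle genes measured in interdigital webs of the Chinese soft-shell turtle, Pelodiscus sinensis, before hatching. They were taken from the deposited table by gene symbol: symbols of the troponin, myosin binding protein, myosin heavy chain, myosin light chain, myozenin, leiomodin, calsequestrin and muscle kelch patterns, and 19 single symbols. The choice took 40 of 19328 genes. Of the 19 single symbols 14 were present, while no row bore the symbol MYOD1, TTN, DES, CKM or RYR1, and these genes were not analysed here. Of the myosin heavy chain pattern the table held MYH10, MYH11 and MYH7B. MYH10 (a nonmuscle myosin), MYH11 (the smooth muscle myosin) and LMOD1 (a smooth muscle leiomodin) were taken by the patterns although they are not skeletal muscle proteins, which leaves 37 skeletal muscle members. MYOZ3 and MYBPC3 had 0 counts in all 8 libraries, and the other 38 members all passed the filter on low counts. In ratios between libraries a count of 0 was replaced by a floor of 3 counts, which is a convention and not a measured limit.

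All embryos were wild type and at stage 19 of the Tokita-Kuratani series of soft-shell turtle development. The 4 webs between neighbouring digits were dissected from the forelimbs and from the hindlimbs of the same 20 individuals, and each web was pooled over both body sides, so that 40 pieces of tissue made 1 RNA library. Webs are numbered from the digit I side, so that web 1 joins digits I and II, and the last, web 4, joins digits IV and V. The labels tag the forelimb webs ICD and the hindlimb webs anti-ICD without spelling the tag out, and they give no treatment. Each position is 1 pool here, with no second pool from other animals, so the p-values below hold no spread between replicates of 1 position. They rest on the scatter of different positions about each fit. For a slope within 1 limb this scatter is the departure of that limb's pools from a straight line. Such a fit has 2 residual degrees of freedom, or 1 with a library left out. A low p there does not tell how other animals would vary. Because the tissue is bulk, fewer muscle cells and less muscle RNA per cell cannot be told apart.

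Limb muscle in vertebrates is built by progenitors that leave the somites, carry PAX3 and PAX7, enter the limb bud and turn on the myogenic factors MYF5, MYOD1, MYOG and MYF6 in overlapping steps. Myoblasts then fuse into fibres and assemble sarcomeres, in which myosin thick filaments slide along actin thin filaments under the control of troponin and calcium. Fast and slow fibres use different troponins and light chains, and embryonic muscle also uses forms best known from the heart.

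The 8 libraries held 53116512 to 65849337 counts, a range of 1.24-fold, and 14386 genes were tested. The correlation of log2(CPM + 1) between any pair of libraries was 0.986 to 0.996. Among the skeletal muscle markers, 4 were measured (ACTA1, MYF5, MYOG and NEB) and all 4 had counts in every library, with a summed level of 15.7 to 50.7 TPM in the forelimb and 15.97 to 87.1 TPM in the hindlimb. TPM is the deposited measure of a gene's level, which takes account of gene length and sums to the same total in each library. Heart muscle markers were at or near 0: NPPB had 0 counts in all libraries, NKX2-5 was at most 0.0478 TPM, MYL7 at most 0.174 TPM and RYR2 at most 0.135 TPM.

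The muscle genes were most abundant in the first hindlimb web and least abundant in the third forelimb web and the fourth hindlimb web. Summed over the 37 skeletal muscle members, the level was 746, 414, 209.6 and 614 TPM in forelimb webs 1 to 4 and 1365, 399, 404 and 234 TPM in hindlimb webs 1 to 4. The hindlimb thus stepped down after web 1, while the forelimb went down to web 3 and was high again in web 4. Hindlimb web 1 was the highest library for 30 of the 38 members with counts, and for 11.6% of all genes tested. The lowest library was forelimb web 3 for 20 members and hindlimb web 4 for 11, which together hold the lowest value of 26.03% of all genes. The ratio of highest to lowest library, in CPM (counts scaled to the library total after adjustment by a TMM factor for each library), had a median of 7.17 over the members and 1.49 over all genes. Of the members 33 of 38 (86.8%) spanned at least 4-fold, against 13.6% of all genes.

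**Figure D1:**
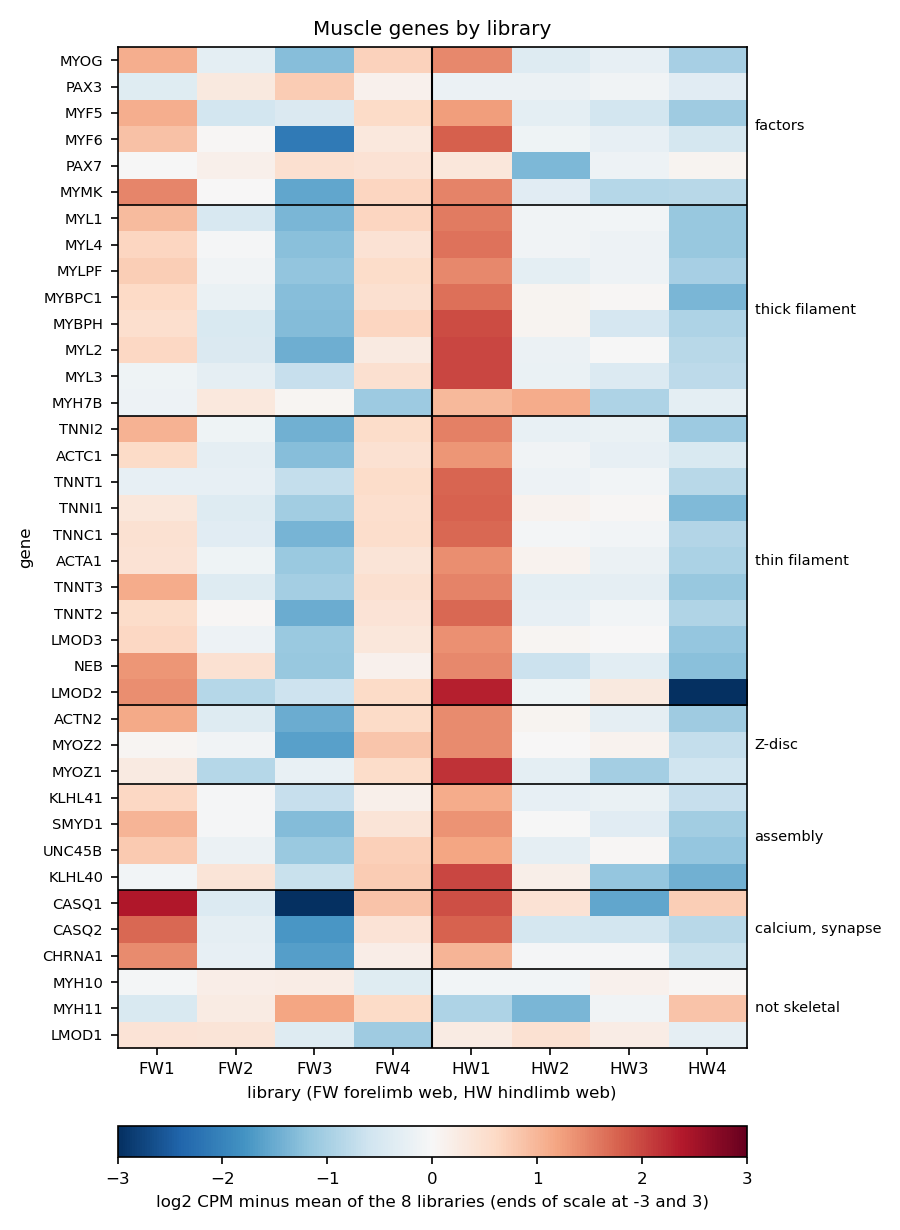
Log2 CPM of each tested member (rows, grouped by role) in each of the 8 libraries (columns), shown as the difference from the gene's own mean over the 8 libraries, with red above and blue below that mean. Most rows are red in hindlimb web 1 and blue in forelimb web 3 and hindlimb web 4, where the median over the 35 tested skeletal muscle members was 1.498, -1.26 and -0.93.

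Among the progenitor and myogenic factors, the genes of committed myoblasts followed the sarcomere genes, and the progenitor genes PAX3 and PAX7 did not. PAX3, the factor of migrating limb muscle progenitors, stood at 2.51, 4.11, 5.59 and 3.33 TPM in forelimb webs 1 to 4 and 2.89, 2.69, 2.899 and 2.43 TPM in hindlimb webs 1 to 4. PAX7, which marks the progenitors that later give satellite cells, stood at 1.11, 1.28, 1.56 and 1.42 TPM in forelimb webs 1 to 4 and 1.44, 0.385, 0.9703 and 1.11 TPM in hindlimb webs 1 to 4. PAX3 was thus high in forelimb webs 2 and 3 and flat across the hindlimb, and PAX7 was at its lowest in hindlimb web 2. Which cells of the webs carried PAX3 and PAX7 was not tested.

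MYF5, the earliest myogenic factor of the limb, stood at 5.94, 1.95, 2.06 and 3.905 TPM in forelimb webs 1 to 4 and 6.75, 2.12, 1.82 and 1.26 TPM in hindlimb webs 1 to 4. MYOG, myogenin, which drives differentiation, stood at 10.1, 3.96, 1.88 and 7.26 TPM in forelimb webs 1 to 4 and 13.1, 3.35, 3.83 and 2.23 TPM in hindlimb webs 1 to 4. MYF6, a late myogenic factor, stood at 3.37, 1.94, 0.394 and 2.15 TPM in forelimb webs 1 to 4 and 6.49, 1.57, 1.48 and 1.19 TPM in hindlimb webs 1 to 4. All 3 were highest in hindlimb web 1, with forelimb web 1 next, and forelimb web 4 exceeded forelimb webs 2 and 3 for each. MYMK, the membrane protein that lets myoblasts fuse, stood at 2.06, 0.7599, 0.234 and 1.102 TPM in forelimb webs 1 to 4 and 2.12, 0.546, 0.387 and 0.386 TPM in hindlimb webs 1 to 4. Its level in the first web was nearly equal in both limbs. The limbs overlapped for all 6 factors, as they did for all but 2.81% of all genes. In the RefSeq gene table MYF5 and MYF6 are neighbours on the same chromosome, as they are in other vertebrates.

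**Figure D2:**
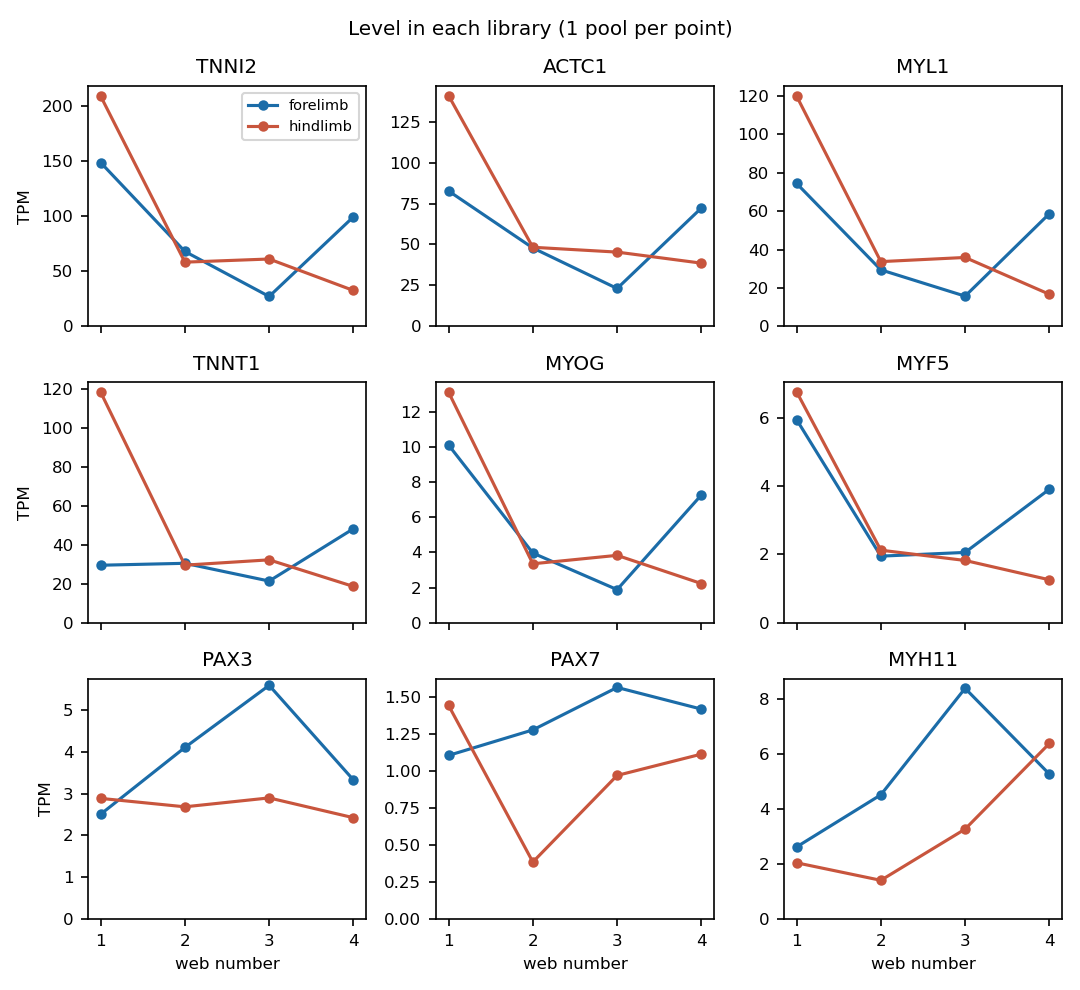
TPM of 9 members (vertical axes, each from 0) against web number (horizontal axes) in the forelimb (blue) and the hindlimb (red), with 1 pool per point and no error bar. TNNI2, ACTC1, MYL1, MYOG and MYF5 are high in web 1 of both limbs and in forelimb web 4, TNNT1 is high in hindlimb web 1, and PAX3 and MYH11 peak in forelimb web 3.

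The thick filament members were led by light chains. MYL1, the fast fibre essential light chain, stood at 74.5, 29.4, 15.7 and 58.7 TPM in forelimb webs 1 to 4 and 120.0, 33.7, 35.9 and 16.7 TPM in hindlimb webs 1 to 4. MYL4, the embryonic and atrial light chain, stood at 42.3, 27.3, 11.5 and 34.7 TPM in forelimb webs 1 to 4 and 85.5, 23.7, 23.7 and 11.9 TPM in hindlimb webs 1 to 4. Both were highest in hindlimb web 1 and lowest in forelimb web 3, with hindlimb web 4 close above. MYL2, the slow and cardiac regulatory light chain, stood at 4.56, 2.25, 1.06 and 3.33 TPM in forelimb webs 1 to 4 and 12.2, 2.51, 2.85 and 1.58 TPM in hindlimb webs 1 to 4. MYL3, the slow and ventricular light chain, stood at 1.74, 1.66, 1.19 and 2.55 TPM in forelimb webs 1 to 4 and 7.88, 1.56, 1.39 and 1.06 TPM in hindlimb webs 1 to 4. MYBPH, a myosin binding protein, stood at 7.14, 3.77, 2.01 and 7.35 TPM in forelimb webs 1 to 4 and 19.9, 4.96, 3.38 and 2.49 TPM in hindlimb webs 1 to 4. For these 3 genes hindlimb web 1 stood well above every other library, and forelimb web 4 exceeded forelimb web 1 for MYL3 and MYBPH. MYH7B, a slow type myosin heavy chain, was low everywhere at 0.195, 0.288, 0.232 and 0.0829 TPM in forelimb webs 1 to 4 and 0.453, 0.461, 0.106 and 0.162 TPM in hindlimb webs 1 to 4. It did not follow the other thick filament genes, since hindlimb webs 1 and 2 were about equal. The remaining members, MYLPF (the fast regulatory light chain) and MYBPC1 (the slow myosin binding protein C), spanned 8.61 to 53.2 TPM and 2.35 to 20.5 TPM and were highest in hindlimb web 1.

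The thin filament held the most abundant skeletal muscle genes. TNNI2, the fast troponin I, stood at 148, 67.9, 27.1 and 99.3 TPM in forelimb webs 1 to 4 and 209, 58.2, 61.04 and 32.5 TPM in hindlimb webs 1 to 4. ACTC1, the alpha actin of heart and embryonic skeletal muscle, stood at 82.7, 47.9, 23.1 and 72.3 TPM in forelimb webs 1 to 4 and 141, 48.3, 45.4 and 38.6 TPM in hindlimb webs 1 to 4. ACTA1, the alpha actin of adult skeletal muscle, stood at 33.6, 23.5, 11.6 and 30.8 TPM in forelimb webs 1 to 4 and 66.2, 25.2, 21.4 and 12.3 TPM in hindlimb webs 1 to 4. All 3 were highest in hindlimb web 1 and lowest in forelimb web 3. The proteins of ACTA1 and ACTC1 are nearly identical, and how well reads were split between the 2 genes was not tested. TNNT3, the fast troponin T, stood at 52.1, 18.5, 10.8 and 30.8 TPM in forelimb webs 1 to 4 and 66.7, 17.1, 18.2 and 10.3 TPM in hindlimb webs 1 to 4. TNNT1, the slow troponin T, stood at 29.5, 30.5, 21.4 and 48.2 TPM in forelimb webs 1 to 4 and 118, 29.5, 32.3 and 18.6 TPM in hindlimb webs 1 to 4. The slow gene was about level in forelimb webs 1 and 2 and stood highest in hindlimb web 1, with forelimb web 4 next, whereas the fast gene was also high in forelimb web 1.

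TNNI1, the slow troponin I, stood at 34.9, 21.9, 13.6 and 37.04 TPM in forelimb webs 1 to 4 and 96.8, 28.04, 27.3 and 10.6 TPM in hindlimb webs 1 to 4. TNNC1, the slow and cardiac troponin C, stood at 35.4, 20.4, 9.91 and 34.5 TPM in forelimb webs 1 to 4 and 97.4, 24.8, 26.8 and 12.9 TPM in hindlimb webs 1 to 4. TNNT2, the cardiac and embryonic troponin T, stood at 33.98, 24.5, 8.299 and 29.02 TPM in forelimb webs 1 to 4 and 77.7, 18.3, 21 and 11.8 TPM in hindlimb webs 1 to 4. For these genes hindlimb web 1 was again the highest library, and forelimb webs 1 and 4 were close to each other. NEB, nebulin, the ruler of the thin filament, stood at 0.971, 0.543, 0.175 and 0.396 TPM in forelimb webs 1 to 4 and 1.06, 0.232, 0.298 and 0.153 TPM in hindlimb webs 1 to 4. LMOD2, a leiomodin that nucleates actin in striated muscle, stood at 0.542, 0.0944, 0.114 and 0.267 TPM in forelimb webs 1 to 4 and 1.07, 0.159, 0.216 and 0 TPM in hindlimb webs 1 to 4. Both were low in TPM, and LMOD2 had no counts in hindlimb web 4. Its highest library was 25.2 times the floor of 3 counts in that library. LMOD3, another striated muscle leiomodin, ranged from 1.36 to 8.62 TPM and was highest in hindlimb web 1.

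At the Z-disc, which anchors the thin filaments, ACTN2 (alpha-actinin of muscle) stood at 10.5, 3.78, 1.71 and 6.66 TPM in forelimb webs 1 to 4 and 13.01, 4.74, 3.802 and 2.16 TPM in hindlimb webs 1 to 4. MYOZ2, a myozenin of slow and cardiac muscle, stood at 5.09, 4.66, 1.55 and 8.27 TPM in forelimb webs 1 to 4 and 13.3, 4.65, 5.05 and 2.83 TPM in hindlimb webs 1 to 4. MYOZ1, the fast fibre myozenin, stood at 0.515, 0.213, 0.361 and 0.607 TPM in forelimb webs 1 to 4 and 2.06, 0.317, 0.1803 and 0.249 TPM in hindlimb webs 1 to 4. ACTN2 was high in the first web of both limbs, while MYOZ2 and MYOZ1 were higher in forelimb web 4 than in forelimb web 1.

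Of the assembly genes, KLHL41 (a kelch protein that stabilises nebulin) stood at 40.2, 27.2, 17.1 and 27.8 TPM in forelimb webs 1 to 4 and 55.1, 21.7, 22.9 and 17.04 TPM in hindlimb webs 1 to 4. SMYD1, a muscle methyltransferase needed for myosin assembly, stood at 18.1, 8.62, 3.41 and 11.9 TPM in forelimb webs 1 to 4 and 23.7, 8.94, 6.79 and 3.82 TPM in hindlimb webs 1 to 4. KLHL40, a kelch protein that stabilises thin filament proteins, stood at 1.33, 1.895, 0.878 and 2.27 TPM in forelimb webs 1 to 4 and 5.89, 1.51, 0.598 and 0.484 TPM in hindlimb webs 1 to 4. All 3 were highest in hindlimb web 1, but only KLHL41 and SMYD1 were also high in forelimb web 1. UNC45B, the myosin chaperone, ranged from 1.76 to 9.47 TPM with the same highest library.

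CASQ1, the calcium store protein of fast fibres, stood at 3.78, 0.528, 0 and 1.198 TPM in forelimb webs 1 to 4 and 2.79, 0.887, 0.204 and 1.12 TPM in hindlimb webs 1 to 4. CASQ2, the calcium store protein of slow and cardiac muscle, stood at 2.71, 0.689, 0.233 and 1.02 TPM in forelimb webs 1 to 4 and 2.83, 0.527, 0.527 and 0.429 TPM in hindlimb webs 1 to 4. CASQ1 was highest in forelimb web 1 and had no counts in forelimb web 3. Its highest library was 70.4 times the floor of 3 counts in forelimb web 3. CASQ2 was about equal in the first web of both limbs. CHRNA1, the alpha subunit of the muscle acetylcholine receptor, ranged from 0.189 to 1.65 TPM and was also highest in forelimb web 1.

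The 3 genes that the patterns took without being skeletal muscle genes had other profiles. MYH10 stood at 122, 151, 149.6 and 92.96 TPM in forelimb webs 1 to 4 and 122, 113, 133 and 124 TPM in hindlimb webs 1 to 4. MYH11 stood at 2.62, 4.51, 8.38 and 5.27 TPM in forelimb webs 1 to 4 and 2.05, 1.41, 3.27 and 6.38 TPM in hindlimb webs 1 to 4. LMOD1 stood at 3.84, 3.89, 2.197 and 1.28 TPM in forelimb webs 1 to 4 and 3.43, 3.698, 3.24 and 2.28 TPM in hindlimb webs 1 to 4. MYH10 varied least of all members, with a ratio of highest to lowest library of 1.5, MYH11 was lowest in the first 2 hindlimb webs and highest in forelimb web 3, and LMOD1 was lowest in forelimb web 4. Over the 8 pools, Pearson's correlation of each member with the mean of the other members was -0.64 for MYH11, -0.58 for MYH10, -0.46 for PAX3, 0.06 for PAX7 and 0.21 for LMOD1 and for MYH7B. It was 0.72 to 0.99 for the remaining members and over 0.95 for 19 of them. These correlations describe 8 pools from the same animals and were not tested.

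Along the digits of the hindlimb the muscle genes fell from web 1 to web 4. In a fit of web number to the 4 hindlimb pools, 28 of 38 members fell, 1 rose and 9 were not called at an adjusted p below 0.05 (edgeR's quasi-likelihood test with Benjamini-Hochberg adjustment), where 4.15% of all genes fell, 3.33% rose and 7.48% were called in either direction. The median slope over the members was -0.78 log2 units per web, against a median near 0 for all genes. Genes that fell included 4 of 6 progenitor and myogenic factors, 7 of 8 thick filament, 10 of 11 thin filament, 2 of 3 Z-disc, 1 of 3 calcium and synapse, and all 4 assembly genes.

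TNNI2 had a slope of -0.80 ± 0.106 (SE, adjusted p = 0.0021) in edgeR's test, in log2 units per web. ACTA1 had a slope of -0.74 ± 0.0689 (SE, adjusted p = 0.00039), MYL1 one of -0.82 ± 0.105 (SE, adjusted p = 0.0018) and TNNI1 one of -0.95 ± 0.116 (SE, adjusted p = 0.0014) in the same edgeR fit. The steepest fall among the members called was that of KLHL40, at -1.22 ± 0.181 (SE, adjusted p = 0.0036). The myogenic factors fell by similar amounts, with slopes of -0.75 ± 0.157 (SE, adjusted p = 0.019) for MYF5, -0.76 ± 0.186 (SE, adjusted p = 0.037) for MYOG and -0.76 ± 0.161 (SE, adjusted p = 0.02) for MYF6, and MYMK was close to the threshold at -0.79 ± 0.205 (SE, adjusted p = 0.046). PAX3 and PAX7 had slopes of -0.04 ± 0.0873 and -0.02 ± 0.255, with adjusted p of 0.84 and 0.98 in edgeR. The gene that rose was MYH11, at 0.65 ± 0.127 (SE, adjusted p = 0.013).

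These hindlimb calls rest on 1 library. Without hindlimb web 1, 1 of 38 members fell (ACTA1) and 1 rose (MYH11), where 1.47% of all genes fell, 1.44% rose and 2.91% were called in either direction, and the median slope was -0.35, with 34 of 38 members negative. Without web 2, 3 or 4 in turn, 28, 29 and 25 members fell, where 463, 700 and 374 of 14386 genes did. Without web 4 MYH11 was not called. With limma on log2(TPM + 1) 16 members fell, where 437 of 14386 genes did. With edgeR's robust prior 17 members fell, where 646 of 14386 genes did, and MYH11 was called in neither. TNNI2, for example, had a slope of -0.43 ± 0.124 without web 1 (adjusted p = 0.13, edgeR), and its levels in hindlimb webs 2 and 3 were nearly equal, as given above.

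In the forelimb, no member was called over webs 1 to 4. The count was 0 of 38 in edgeR, where 2.12% of all genes were called (0.723% higher and 1.4% lower toward web 4). It was 0 in DESeq2, where 852 of 14386 genes were called. At an unadjusted p under 0.05 there were 2 members in edgeR and 3 in DESeq2, against 13.4% of all genes in edgeR. The share of all genes at such a p in DESeq2 was not counted. The count of 0 members called rests on web 4. Over forelimb webs 1 to 3 alone, 24 members fell and 2 rose at an adjusted p below 0.05 in edgeR, where 3.29% of all genes fell, 1.57% rose and 4.86% were called in either direction, and the median slope over the members was -0.93. TNNI2 had a slope of -1.23 ± 0.0783 (SE, adjusted p = 0.0002), ACTC1 of -0.93 ± 0.0649 (SE, adjusted p = 0.00021) and MYLPF of -0.96 ± 0.0788 (SE, adjusted p = 0.00048) in that edgeR fit. The calcium store genes were the steepest, with CASQ1 at -3.59 ± 0.538 (SE, adjusted p = 0.0074) and CASQ2 at -1.77 ± 0.202 (SE, adjusted p = 0.002). MYF6, MYMK and MYOG fell too, with slopes of -1.49 ± 0.294 (SE, adjusted p = 0.025), -1.55 ± 0.271 (SE, adjusted p = 0.015) and -1.21 ± 0.263 (SE, adjusted p = 0.037) in edgeR. PAX3 rose at 0.57 ± 0.124 (SE, adjusted p = 0.037) and MYH11 rose at 0.83 ± 0.0976 (SE, adjusted p = 0.0023). The slow genes TNNT1 and MYL3 were not called, at -0.24 ± 0.136 (SE, adjusted p = 0.4) and -0.28 ± 0.235 (SE, adjusted p = 0.59). This fit of 3 pools had 1 residual degree of freedom of its own and was chosen after the levels in web 4 had been seen. Leaving out forelimb web 1 instead gave a positive slope for 33 of 38 members, with a median of 0.34. No member was called in that fit, where 382 of 14386 genes were. The direction along the forelimb thus depends on which pool is left out.

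**Figure D3:**
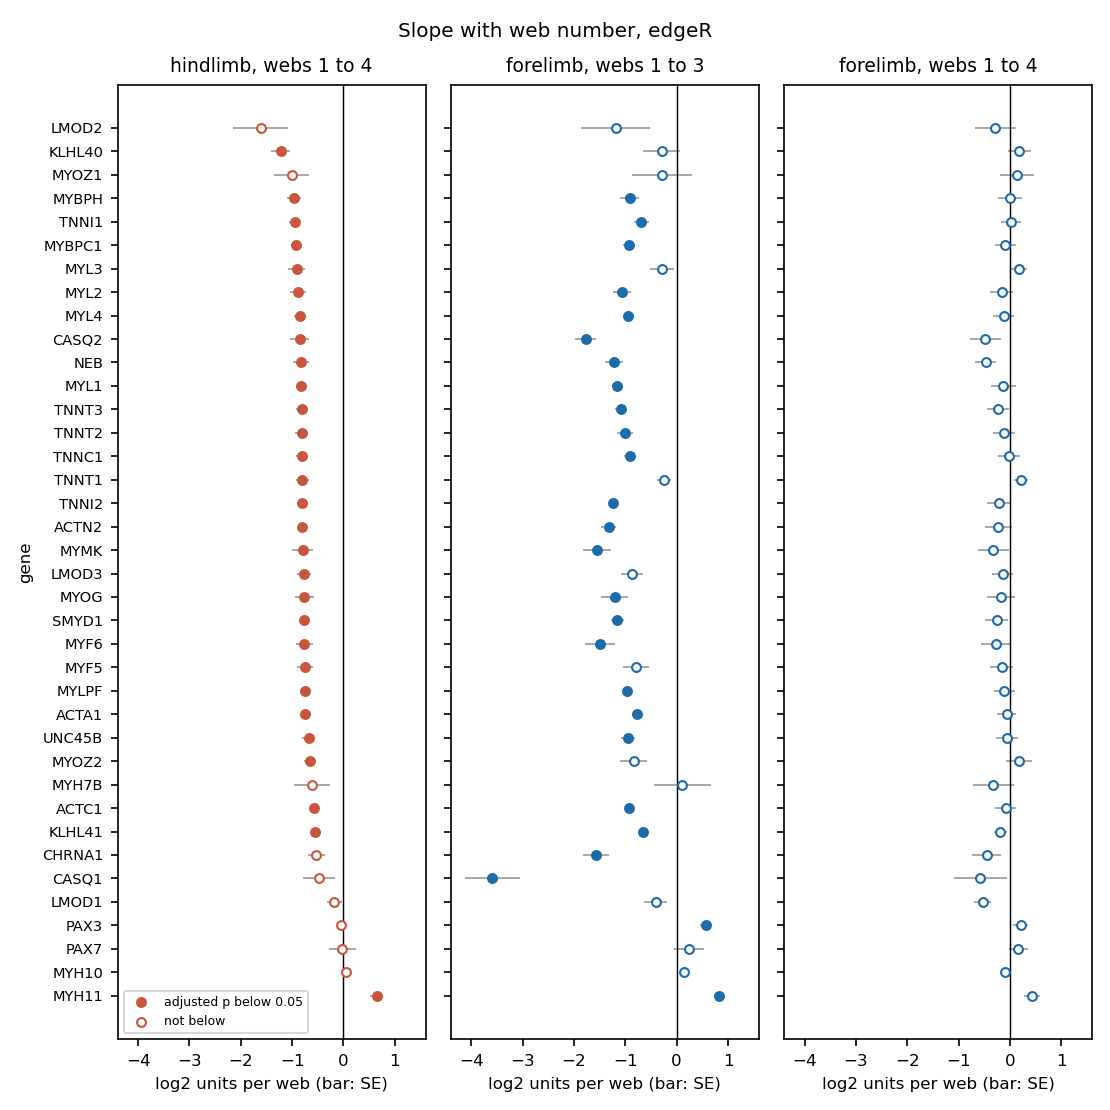
Slope with web number in log2 units per web (points, with SE bars) for each of the 38 tested members, in the hindlimb over webs 1 to 4, the forelimb over webs 1 to 3 and the forelimb over webs 1 to 4. Filled points passed an adjusted p of 0.05 in edgeR: 29 in the hindlimb, 26 over forelimb webs 1 to 3 and 0 over forelimb webs 1 to 4.

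With both limbs in one fit, 2 of 38 members were called, where 11.1% of all genes were called (4.48% higher and 6.65% lower toward web 4). NEB fell at -0.64 ± 0.158 (SE, adjusted p = 0.025) in edgeR and MYH11 rose at 0.56 ± 0.1204 (SE, adjusted p = 0.012). The slope was negative for 35 of the 38 members, with a median of -0.44 against 0.00 for all genes, and 20 members had a negative slope with an unadjusted p under 0.05, where 24.7% of all genes had such a p in either direction. The adjusted p of NEB in edgeR was 0.11 when forelimb web 1 was left out. It was 0.20, 0.051 and 0.10 when the hindlimb's web 1, 3 or 4 was left out, and the adjusted p of MYH11 in edgeR was 0.11 when hindlimb web 4 was. The count rests on forelimb web 4: without it 29 members fell and 1 rose in edgeR, where 7.18% of all genes fell, 5.78% rose and 13.0% were called in either direction. Without web 1 of both limbs no member was called, where 681 of 14366 genes were, and the median slope over the members was 0.04.

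A difference between limbs in these slopes was not detected. In the fit with an interaction of limb and web number, 0 of 38 members passed the adjusted threshold in edgeR, as did 0.0% of all genes. Since no gene at all was called, the 0 members do not show that the slopes of the limbs are alike. DESeq2 also called 0 members, as did the edgeR fit with web number as a block, where each called 1 of 14386 genes. At an unadjusted p under 0.05 there were 11 members in edgeR, where 3.88% of all genes had such a p. There were 5 in DESeq2 and 18 with the block. All of these members had the more negative slope in the hindlimb. The median interaction was -0.59 log2 units per web, without forelimb web 4 it was 0.14, without hindlimb web 1 it was -0.25, and without forelimb web 1 it was -1.14. Without forelimb web 1, 29 members had an unadjusted p under 0.05 in edgeR, and 0 members and 1 of 14525 genes passed the adjusted threshold. The share of all genes at an unadjusted p under 0.05 was not counted for that fit, DESeq2 or the block. Their member counts thus have no share to be set against. The lowest unadjusted p among negative values belonged to KLHL40 (-1.40 ± 0.305), TNNT1 (-1.01 ± 0.225), MYL3 (-1.07 ± 0.272) and TNNI1 (-0.97 ± 0.269). Among positive values it belonged to LMOD1 (0.36 ± 0.204), MYH10 (0.14 ± 0.104), MYH11 (0.22 ± 0.244) and CASQ1 (0.10 ± 0.727).

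Between the limbs as a whole no difference in the muscle genes was detected beyond the spread between webs. TNNI2 had a mean of 85.7 ± 51.3 TPM (SD, n = 4) in the forelimb and 90.1 ± 80.1 TPM (SD, n = 4) in the hindlimb. Of 38 members 0 were called in edgeR, where 0.0209% of all genes were called (0.00695% higher and 0.0139% lower in the hindlimb). At an unadjusted p under 0.05 edgeR also gave 0 members, against 4.04% of all genes. DESeq2 called 0 members, where 18 of 14386 genes were called, with PAX3 at an unadjusted p under 0.05. With web number as a block edgeR called 0 members, where 0.167% of all genes were called (0.0904% higher and 0.0765% lower), and PAX3 and MYH11 had an unadjusted p under 0.05. The share of all genes at such a p was not counted for DESeq2 or the block. For no member did the 4 hindlimb pools lie wholly above or below the 4 forelimb pools, against 2.81% of all genes. The median log2 difference, hindlimb minus forelimb, was 0.21 over the members and -0.01 over all genes, and it was -0.48 without hindlimb web 1. A fit with a numeric covariate for web number gave -0.04, with 17 members positive and 21 negative against 26 and 12 without it, and limma on log2(TPM + 1) gave 0.06.

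The genes with the lowest unadjusted p in each direction were MYL3 (0.73 ± 0.597 log2 units), MYL2 (0.76 ± 0.635), TNNT1 (0.61 ± 0.517) and MYH7B (0.61 ± 0.584) among those higher in the hindlimb, and PAX3 (-0.47 ± 0.214), MYH11 (-0.63 ± 0.484), PAX7 (-0.43 ± 0.375) and MYMK (-0.28 ± 0.702) among those lower. Without hindlimb web 1 the values of MYL3, MYL2 and TNNT1 were -0.36, -0.23 and -0.22, and without forelimb web 1 that of MYMK was 0.28.

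Web by web, the direction between the limbs changed. In web 1, 33 of the 35 tested skeletal muscle members were higher in the hindlimb pool, by a median of 1.68-fold. In web 2, 21 were higher and 14 lower, with a median of 1.08-fold. In web 3, 29 were higher in the hindlimb, by a median of 2.05-fold. In web 4, 34 were higher in the forelimb, by a median of 2.68-fold, and 1 was higher in the hindlimb. Over all genes the hindlimb pool was the higher for 48.3% to 50.5% in each web. Each of these compares 1 pool with 1 pool and has no replicate check.

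The first web was compared between the limbs for genes of fast fibres and genes of slow fibres or heart, and the latter had the larger median ratio. No row bore the symbol of the fast genes TNNC2, MYBPC2, MYH1, MYH2 and MYH4 or of the slow or heart genes TNNI3, MYH6 and MYH7. In hindlimb web 1 over forelimb web 1, the 6 fast fibre members had a median CPM ratio of 1.46, from 0.729 for CASQ1 to 3.86 for MYOZ1. The 10 slow fibre or heart members had a median ratio of 2.51, from 1.03 for CASQ2 to 4.44 for MYL3. TNNT2, 1 of these 10, is also an embryonic form, and the 3 embryonic members (ACTC1, MYL4 and TNNT2) had a median ratio of 1.99. The slow troponins TNNT1, TNNI1 and TNNC1 had ratios of 3.95, 2.73 and 2.44, and the fast troponins TNNI2 and TNNT3 had ratios of 1.39 and 1.30. The fast light chains MYL1 and MYLPF stood at 1.53 and 1.62. These are single pools, so no test was made.

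The ratio of slow to fast troponin I (TNNI1 over TNNI2, in TPM) was 0.235, 0.322, 0.502 and 0.373 in forelimb webs 1 to 4 and 0.464, 0.482, 0.447 and 0.325 in hindlimb webs 1 to 4. The ratio of slow to fast troponin T (TNNT1 over TNNT3) was 0.566, 1.64, 1.99 and 1.56 in the forelimb and 1.77, 1.73, 1.77 and 1.81 in the hindlimb. Both ratios were lowest in forelimb web 1, the library with the second highest summed level. Over webs 2 to 4 the ranges of the limbs overlapped for both ratios.

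**Figure D4:**
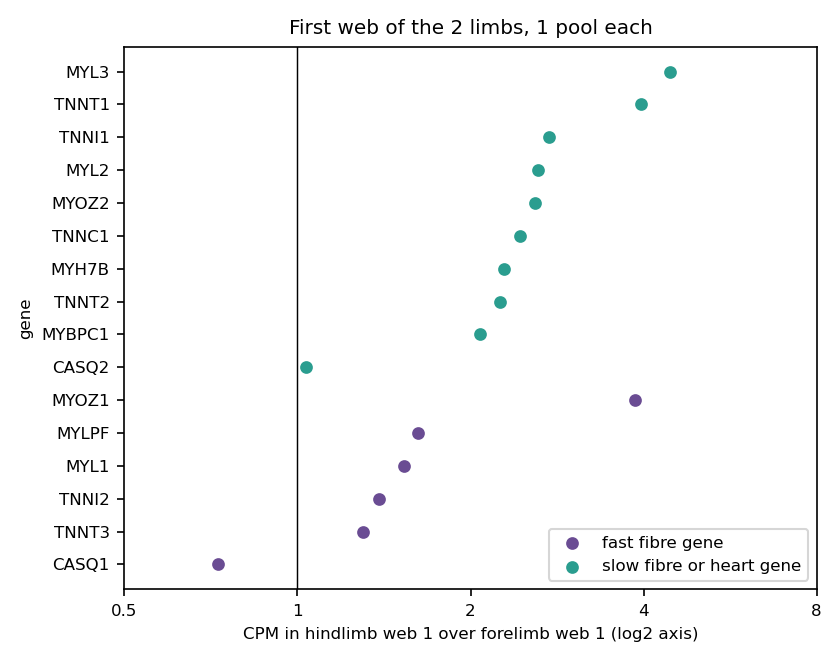
CPM in hindlimb web 1 over CPM in forelimb web 1 (log2 axis) for 6 fast fibre members (purple) and 10 slow fibre or heart members (green), with 1 pool per limb and no error. The slow genes center on 2.51 and the fast genes on 1.46, with MYOZ1 (3.86), CASQ1 (0.729) and CASQ2 (1.03) apart from their groups.

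Other muscle genes, listed from textbook knowledge, lie outside the symbol choice. Of 35 further sarcomere and costamere genes, 14 fell along the hindlimb, 0 rose and 21 were not called in edgeR, where 4.15% of all genes fell. Their median slope was -0.40, and without hindlimb web 1 none was called, where 2.91% of all genes were. In the fit of both limbs 11 fell and 0 rose, with a median of -0.28, where 6.65% of all genes fell. They were CAPN3, CRYAB, DYSF, MYOM1, PDLIM3, PDLIM5, SMPX, SYNPO2L, TMOD1, TRIM55 and XIRP2, with slopes from -0.94 for SMPX to -0.12 for PDLIM5. ACTN3, the alpha-actinin of fast fibres, stood at 10.6, 7.33, 2.098 and 10.2 TPM in forelimb webs 1 to 4 and 18.9, 6.04, 5.46 and 3.93 TPM in hindlimb webs 1 to 4 and fell along the hindlimb at -0.69 ± 0.107 (SE, adjusted p = 0.0044) in edgeR. TPM1, a tropomyosin shared by many cell types, stood at 539.6, 540.0, 535 and 520.3 TPM in forelimb webs 1 to 4 and 614, 539, 564 and 540.4 TPM in hindlimb webs 1 to 4 and varied little. HSPB8 and SGCB, the next most abundant of this list, ranged from 38.96 to 69.5 TPM and from 40.7 to 51.3 TPM. TRIM55, a ubiquitin ligase of the sarcomere, stood at 3.43, 1.601, 0.886 and 0.888 TPM in forelimb webs 1 to 4 and 4.76, 1.21, 1.51 and 0.675 TPM in hindlimb webs 1 to 4 and fell over both limbs at -0.72 ± 0.1197 (SE, adjusted p = 0.0029) in edgeR. Unlike ACTN3, TRIM55 was low in forelimb web 4.

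Of 14 calcium handling genes, 4 fell along the hindlimb (CACNA1S, CACNG1, JPH2 and SRL), where 4.15% of all genes did, with a median slope of -0.31. None was called without hindlimb web 1 or over both limbs, where 2.91% and 11.1% of all genes were. CACNG1, a subunit of the muscle calcium channel, stood at 18.6, 5.95, 2.21 and 7.36 TPM in forelimb webs 1 to 4 and 17.9, 3.92, 4.94 and 1.88 TPM in hindlimb webs 1 to 4, high in the first web of both limbs. BIN1, a membrane shaping protein and the most abundant of this list, ranged from 28.95 to 37.8 TPM. Of 9 neuromuscular synapse genes, CHRNG and MUSK fell over both limbs, where 6.65% of all genes did, and the median slope was -0.41. CHRNG, the fetal subunit of the acetylcholine receptor, stood at 3.68, 2.001, 0.547 and 1.396 TPM in forelimb webs 1 to 4 and 4.59, 0.834, 0.661 and 0.382 TPM in hindlimb webs 1 to 4, with a slope of -0.80 ± 0.208 (SE, adjusted p = 0.031) in edgeR. MUSK, the kinase that organises the synapse, stood at 3.69, 3.36, 0.9597 and 0.898 TPM in forelimb webs 1 to 4 and 2.84, 2.07, 0.4895 and 0.241 TPM in hindlimb webs 1 to 4, with a slope of -0.94 ± 0.152 (SE, adjusted p = 0.0025). MUSK stepped down between webs 2 and 3 in both limbs. Of 9 energy metabolism genes tested, CKB and PHKG1 fell over both limbs, against the same 6.65% of all genes, and the median slope was -0.05. ALDOA, the aldolase of glycolysis and the most abundant of them, ranged from 646 to 769 TPM. CKB, the brain form of creatine kinase, stood at 226, 179, 147 and 133 TPM in forelimb webs 1 to 4 and 211, 158, 139 and 117 TPM in hindlimb webs 1 to 4, with a slope of -0.24 ± 0.0276 (SE, adjusted p = 0.0003).

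Of 19 further regulators of myogenesis, 4 rose and 5 fell over both limbs, where 4.48% of all genes rose and 6.65% fell, and the median slope was -0.07. MEOX1, a homeobox factor of the somite, stood at 14.4, 20.5, 36.04 and 37.5 TPM in forelimb webs 1 to 4 and 16.6, 24.1, 39.5 and 42.04 TPM in hindlimb webs 1 to 4 and rose at 0.51 ± 0.0608 (SE, adjusted p = 0.00038) in edgeR. MET, the receptor that guides migrating muscle progenitors, stood at 14.05, 16.02, 22.7 and 23.2 TPM in forelimb webs 1 to 4 and 12.6, 14.98, 20.8 and 23.9 TPM in hindlimb webs 1 to 4 and rose at 0.32 ± 0.0341 (SE, adjusted p = 0.00021). Both were lowest in the first web of each limb. MSTN, myostatin, the secreted brake on muscle growth, stood at 5.74, 2.52, 1.503 and 2.12 TPM in forelimb webs 1 to 4 and 7.096, 2.11, 1.68 and 1.38 TPM in hindlimb webs 1 to 4 and fell at -0.60 ± 0.145 (SE, adjusted p = 0.021). MSC, musculin, a repressor in myoblasts, stood at 12.3, 5.56, 4.65 and 6.35 TPM in forelimb webs 1 to 4 and 19.1, 5.48, 5.61 and 3.55 TPM in hindlimb webs 1 to 4 and fell at -0.50 ± 0.13 (SE, adjusted p = 0.031). RBFOX1 and SPRY1 also rose, and EYA4, HEYL and MEF2C also fell. These genes are also made by other cells of the limb, and which cells carried the change was not tested.

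Markers of other cell types also differed between the libraries. The lists count only markers whose symbol stood in the deposited table. No row bore SCX or THBS4 (tendon), MRC1, C1QC or MARCO (macrophages), ELAVL3, TUBB3 or NEFM (nerve and glia). Nor did any bear ALAS2, GATA1, EPB42 or HBAD (red blood cells), SMTN (smooth muscle), PMEL (pigment) or TWIST1 (web mesenchyme). Macrophage markers (4 of 4 with counts) had a median centred log2 CPM of 0.65, 0.30, -0.62 and -0.41 in forelimb webs 1 to 4 and 0.56, 0.12, -0.67 and -0.03 in hindlimb webs 1 to 4, and their summed level was 57.3 to 132 TPM in the forelimb and 49.7 to 121 TPM in the hindlimb. Nerve and glia markers (4 of 4 with counts) stood at 0.73, 0.14, 0.11 and -0.31 in the forelimb and 0.46, 0.11, -0.33 and -0.72 in the hindlimb, with sums of 4.91 to 12.2 TPM and 4.61 to 8.95 TPM. Both lists were high in the first web of each limb, as the muscle genes were, but neither was high in forelimb web 4. The red blood cell markers were: their 2 genes with counts, HBZ and SLC4A1, had a median of 0.19, 0.68, -0.16 and 0.86 in forelimb webs 1 to 4 and 0.28, -0.44, -0.45 and -0.96 in hindlimb webs 1 to 4, with sums of 1116 to 1895 TPM and 561 to 1178 TPM. Both genes fell along the hindlimb, where 4.15% of all genes did, HBZ at -0.30 ± 0.0433 (SE, adjusted p = 0.0032) and SLC4A1 at -0.46 ± 0.0796 (SE, adjusted p = 0.0081) in edgeR. Neither was called without hindlimb web 1, where 2.91% of all genes were. Web mesenchyme markers (5 of 5 with counts) ranged from -0.50 to 0.32, with sums of 1840 to 3342 TPM in the forelimb and 2152 to 2879 TPM in the hindlimb. Of these 3 of 5 fell along the hindlimb, against the same 4.15% of all genes. Endothelial markers (6 of 6 with counts) ranged from -0.60 to 0.28, with sums of 26.1 to 53.6 TPM and 33.1 to 51.3 TPM, and 2 of 6 fell along the hindlimb, where 4.15% of all genes did. The medians of both of these lists were low in web 4 of both limbs. Not every mesenchyme marker was: in the hindlimb COL1A2 and HOXD13 were highest in web 4, at 1031 and 221 TPM. Of the macrophage markers CSF1R fell over both limbs at -0.38 ± 0.0694 (SE, adjusted p = 0.0049) in edgeR and C1QB at -0.34 ± 0.0739 (SE, adjusted p = 0.012). In that fit 6.65% of all genes fell. Tendon markers (4 of 4 with counts) were highest in forelimb web 2 at 1.67 and lowest in hindlimb web 4 at -1.22, with sums of 109 to 266 TPM in the forelimb and 117 to 249 TPM in the hindlimb. Most of that sum was KERA (keratocan), which was highest in web 4 of both limbs. The tendon median rests partly on genes of low level. FMOD had 162 counts over the 8 libraries, with 0 TPM in forelimb webs 1 and 4, and TNMD ranged from 0.021 to 1.26 TPM. Smooth muscle markers (5 of 5 with counts) ranged from -0.38 to 0.29, with sums of 42.5 to 55.6 TPM and 43.9 to 54.7 TPM. Pigment markers (4 of 4 with counts) stood at 0.41, 0.56, 0.33 and 0.07 in forelimb webs 1 to 4 and -0.14, -0.07, -0.23 and -0.32 in hindlimb webs 1 to 4. Their sums were 71.5 to 98.3 TPM in the forelimb and 53.8 to 66.1 TPM in the hindlimb. The part of these cell types in the results for the members, PAX3 and PAX7 included, was not tested.

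**Figure D5:**
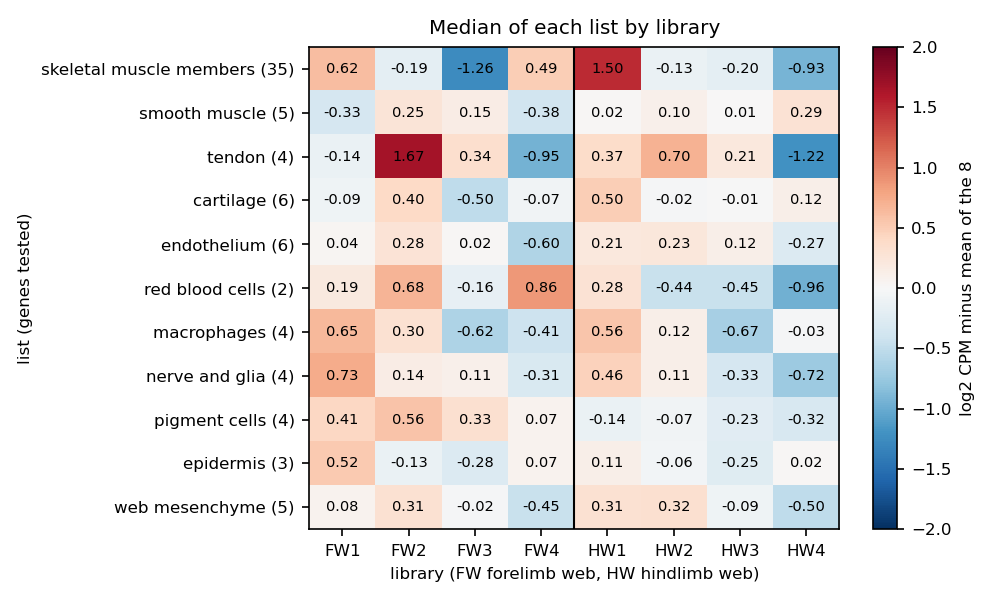
Median of the members and of each marker list (rows, with the number of genes tested) in each library (columns), as log2 CPM minus the mean of the 8 libraries. The row of the 35 tested skeletal muscle members runs from -1.26 in forelimb web 3 to 1.498 in hindlimb web 1, and in forelimb web 4 it stands at 0.49 while the macrophage row stands at -0.41 and the nerve and glia row at -0.31.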

How the data were processed

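Total RNA of 8 pools was sequenced as paired-end Illumina reads, per the labels' protocols, and the submitters' processing notes name HISAT2 2.2.1 besides StringTie 2.1.7. The authors deposited raw counts per gene and a table of TPM with gene symbols. Build, annotation and strand setting are not given in the sources used here, so overlapping and antisense genes cannot be told apart. Counts were whole and not normalised, and TPM as deposited keeps no depth. Of 20472 count values from 1 to 40, 35.5% were multiples of 4, so a count is not 1 independent read, and counting intervals are left out. Gene symbols are those of the TPM table as deposited, and 7598 genes had none. The RefSeq gene table of another assembly held 38 of the 40 members and was used for neighbours only.

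Members, lists and roles were chosen with earlier results of these data known. Genes passed edgeR's filterByExpr (minimum count 10, minimum total 15), which kept 14386 genes, and libraries were scaled by TMM (factors 0.973 to 1.02). Tests were edgeR 4.0.16 quasi-likelihood tests in R 4.3.3, adjusted by Benjamini-Hochberg over all tested genes at 0.05, for limb, for web number with limb, for their product, and for web number in each limb. Residual degrees of freedom were 6, 5, 4 and 2. Each SE of an edgeR fit was derived from the test, as the size of the log2 value divided by the square root of its F statistic. Centred log2 CPM used a prior count of 2. The code was tested on simulated counts, with no lower limit set on the share of changes to be recovered for the interaction. Values in every library are given for the 12 members of highest mean TPM, the myogenic factors, the members of highest level or widest ratio in each role, members past an adjusted p of 0.05 in the limb, both-limb slope or interaction test and, where none passed, the 4 of lowest p per direction.

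The web number pairs the limbs: it marks the same position in the same animals, and the correlation of same-numbered pools, after subtracting each limb's mean, was 0.498, 0.189, 0.242 and 0.327 from web 1 to web 4. Some pools of unlike number came close to these: 0.184 for forelimb web 2 with hindlimb web 1 and 0.237 for forelimb web 3 with hindlimb web 4. The values of webs 2 and 3 thus hardly set the same position apart. Alternatives were DESeq2 1.42.0, limma 3.58.1 on log2(TPM + 1) or log2(TPM + 0.1), RLE factors, library size alone, a robust prior, no filter, the block, web number as a numeric covariate in the limb comparison and leaving out each library. Depth limits what can be said of members with few counts, such as LMOD2, MYOZ1 and MYH7B, with 182, 260 and 265 counts over the 8 libraries. A low TPM alone is no such limit, since NEB had a mean of 0.479 TPM and 2801 counts.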

Additional observations from a re-analysis of the deposited data

Results flagged for a closer look

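In 16 of 76 groups of 4 webs tried (each tested member in each limb), the highest or lowest pool stood apart from the others. The measure is the gap to the nearest pool as a share of the group's whole range, set against Dixon's critical value for 4 samples. It was taken on CPM and not on log2 CPM, where a gap at the top is a smaller share. In centred log2 CPM, TNNI2 stood at 1.507, -0.226, -0.199 and -1.089 in hindlimb webs 1 to 4. Shares in log2 CPM were not set against the critical value, so the flags hold for CPM only. Chance flags about 1 in 20 groups of replicate samples. The 4 pools here are different web positions and not replicates, so that rate cannot be applied to them. All 16 were in the hindlimb, and in all 16 the pool apart was hindlimb web 1, which was the highest.

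Among thin filament genes the share was 0.831 for TNNI2, 0.888 for ACTC1, 0.857 for TNNT1, 0.849 for TNNC1, 0.845 for TNNT3, 0.854 for TNNT2 and 0.833 for NEB. Among thick filament genes it was 0.843 for MYBPH, 0.875 for MYL2 and 0.917 for MYL3. It was 0.844 for MYOG, 0.918 for MYF6 and 0.892 for MYMK among the myogenic factors. It was 0.842 for KLHL41, 0.920 for MYOZ1 and 0.954 for CASQ2. These genes share 1 library, so the 16 flags are not independent of each other.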

How the results depend on the processing

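For the limb comparison and the interaction, no member was called in the main fits or in any alternative run, the replicate block included. Few genes of any kind were called in these runs. Of all genes tested it was 2 to 146 for the limb and 0 to 2 for the interaction. A count of 0 members thus tells little about the members. Of the alternatives of the main counts and medians, 203 gave the same reading and 28 moved. This tally does not measure stability. Medians were judged against a spread of 0.90 log2 units, and member counts for the limb and the interaction were 0 in every run. With 1 pool left out, the median over the members ran from -0.48 to 0.52 for the limb. For the interaction it ran from -1.14 to 0.14. For the slope over both limbs, the number of members that fell was 1 in the main fit, 2 with library size alone and with DESeq2, and 28 in the hindlimb alone. In DESeq2 only 1 of the 2 was a skeletal muscle member. With limma on log2(TPM + 1) 1 member fell, and it was not a skeletal muscle member. The number that fell was 0 with the robust prior, limma on log2(TPM + 0.1), limma on log2(TPM + 1) without the count filter, the forelimb alone or without web 1 of both limbs. It was 0 to 29 when 1 pool was left out. Over all 14386 genes, 956 fell in the main fit, 1121 with library size alone, 1282 with DESeq2 and 963 with the robust prior. The number of members that rose was 1, and 0 with either limma pseudocount, with limma without the filter, in the forelimb alone or without web 1, and 0 to 1 when 1 pool was left out. In the forelimb alone, leaving out 1 pool gave 0 to 24 falls and 0 to 2 rises. In the hindlimb alone, 28 members fell and 1 rose in the main fit. There were 17 falls and 0 rises with the robust prior, 16 and 0 with limma on log2(TPM + 1), 17 and 0 with log2(TPM + 0.1), and 1 to 29 falls and 0 to 1 rises when 1 pool was left out. The cause of the lower member counts with limma and the robust prior was not tested. Over all 14386 genes, 597 fell along the hindlimb in the main fit and 646 with the robust prior. It was 437 with limma on log2(TPM + 1) and 412 with log2(TPM + 0.1). For NEB, the slope over both limbs lost its call with either limma pseudocount, the robust prior, the forelimb alone and without web 1 of both limbs (adjusted p 0.070 to 0.75). For MYH11 it lost its call with either limma pseudocount, the forelimb alone and without web 1 of both limbs (adjusted p 0.050 to 0.30). The replicate block was run only for the limb comparison and the interaction, where no member was called with or without it. It was not run for the slopes.

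Among the members named for their p, those that changed direction did so when 1 pool was left out. For the limb comparison the range was -1.18 to 0.28 for MYMK, -0.36 to 1.00 for MYL3, -0.23 to 1.09 for MYL2 and -0.22 to 0.91 for TNNT1. For the interaction it was -1.24 to 3.16 for CASQ1, -0.084 to 0.34 for MYH10 and -0.17 to 0.68 for MYH11. Depth limits the members at low counts, such as CASQ1 and LMOD2, each with a pool at 0.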

Other observations

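Genes other than the members that followed the muscle members were looked for after their values had been seen. Among 234 genes with a symbol, a mean of at least 2 CPM and at least a 4-fold range, the 30 most like the mean of the members over the 8 pools (by Pearson's correlation, as a description) included 13 that stand in the other muscle lists. How many of the 234 stand in those lists was not counted, so these 13 have no share to be set against. The 4-fold limit itself was reached by 86.8% of the members and 13.6% of all genes. The likest was GJA5, a gap junction connexin of arteries and heart, at 5.54, 2.66, 1.14 and 3.24 TPM in forelimb webs 1 to 4 and 8.16, 2.74, 2.85 and 1.27 TPM in hindlimb webs 1 to 4. TXLNB, beta-taxilin, a protein of muscle, stood at 1.13, 0.743, 0.256 and 1.17 TPM in forelimb webs 1 to 4 and 2.41, 0.6595, 0.741 and 0.403 TPM in hindlimb webs 1 to 4. HSPB1, a small heat shock protein, stood at 15.8, 7.24, 4.02 and 11.3 TPM in forelimb webs 1 to 4 and 22.3, 10.1, 10 and 3.52 TPM in hindlimb webs 1 to 4. All 3 were highest in hindlimb web 1 and lowest in forelimb web 3 or hindlimb web 4. GATM, which makes the precursor of creatine, stood at 28.1, 15.9, 9.76 and 13.3 TPM in forelimb webs 1 to 4 and 36.5, 17.7, 10.3 and 7.62 TPM in hindlimb webs 1 to 4 and was the most abundant of these 30 genes in CPM.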
